A study of Mus musculus with 8 samples.

Results

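The 10 genes described here are Kcne3, Esm1, Apln, Pgf, Pdgfb, Nid2, Plaur, Gpr183, Cd34 and Trp53i11, which are 10 of the 28014 genes in the deposited count table. They were selected on measured values, as tip-cell genes, by their counts in arterial endothelium (aEC) against pre-hemogenic endothelium (pre-HE) and venous endothelium (vEC_1 to vEC_4), and the clusters were drawn on the same RNA. Their levels between clusters, and how often they were found in the same cells, are therefore descriptions, with no test. Tests were kept for what the choice did not use, namely genotype, the difference of genotype effects between clusters, and the amount of CD44 antibody tag within aEC.

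The study profiled CD31-positive cells, sorted from the aorta-gonad-mesonephros (AGM) region of mouse embryos at E10.5, by CITE-seq, which counts messenger RNA and antibody tags in the same cell. There were 5 libraries of WT embryos (C57BL/6) and 3 of Meis1-flox/VE-Cre embryos (Mff_Cre, genotype label Meis1-knockout), in which exon 8 of Meis1 was floxed on both alleles and Cre was driven by the endothelial Cdh5 promoter. Each library pooled cells of 2 to 5 embryos of 1 genotype, so p-values measure the spread between pools, and the strain label of the Mff_Cre libraries is the cross itself, so that genotype and strain background cannot be told apart. The authors grouped the cells into 10 clusters, of which aEC held 1512 cells, pre-HE 248, the cluster in transition from endothelium to blood (EHT) 488, each vEC cluster 1372 to 2853, erythro-myeloid progenitors (EMP) 747, Myeloid cells 2397 and Megakaryocytes 359.

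A sprouting vessel is led by tip cells, migratory endothelial cells that follow VEGF, remodel the matrix around them and hold back their neighbours through Dll4 and Notch. The cells behind them form the stalk and lumen, and as flow starts some tip-cell descendants join arteries. Hemogenic endothelium lies in the wall of the dorsal aorta, and its cells leave the endothelium to become blood. Among the listed genes, Apln encodes apelin, a secreted peptide of tip cells that acts on the receptor Aplnr, Pgf encodes a ligand of the VEGF receptor Flt1, and Pdgfb encodes the growth factor that recruits pericytes. Plaur is the urokinase receptor, Gpr183 a receptor for oxysterols that guides immune cells, and Cd34 a surface sialomucin of endothelial and hematopoietic progenitor cells. Esm1 (endocan) is a secreted proteoglycan, Nid2 a basement membrane protein, Kcne3 an accessory subunit of potassium channels, and Trp53i11 a p53-inducible gene.

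The libraries held 651 to 2598 cells, and the median UMI count (unique molecules read) per cell was 12720 to 28553 in WT and 9612 to 14895 in Mff_Cre, so that 4 of the 5 WT libraries were deeper than every Mff_Cre library. WT 4 held 87 of the 171 WT pre-HE cells, and values that rest on it are given with and without it. The cells of WT 5, labelled WT, carried names that start with Mf, and 33 of 15135 distinct barcodes were found in more than 1 library. Of the marker lists, the 5 endothelial genes summed to 2375 to 2731 CPM (a gene's counts per 1000000 UMIs of the summed cells) in WT pre-HE and 1177 to 1445 in WT aEC. The 5 arterial genes summed to 2594 to 3497 CPM in pre-HE, 371 to 612 in aEC and 69.7 to 237 in the vEC clusters, so that aEC lay between the others on this list, and Gja5, a connexin of arteries, reached at most 4.29 CPM in aEC. Meis1 was at 12.9 to 51.4 CPM in WT pre-HE and 9.57 to 53.1 in Mff_Cre pre-HE, but tags from the 3' end of a transcript do not read the deleted exon and so do not check the genotype. In EMP, Meis1 was called lower in Mff_Cre by the genotype test given below, at -1.20 on the log2 scale (SE 0.17, edgeR adjusted p = 0.0066).

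The name of tip-cell genes lost in pre-HE held for only some of the 10 genes. In the summed WT libraries 4 of the 9 genes with at least 50 UMIs in aEC, namely Kcne3, Apln, Gpr183 and Trp53i11, were at least 4-fold lower in pre-HE than in aEC, where 2.30% of the 9948 genes with that many UMIs were. Esm1 and Nid2 were lower by 2.04-fold and 2.72-fold and Pdgfb by 1.33-fold, while Cd34 and Plaur were higher in pre-HE and Pgf had few UMIs in either cluster. Counted by library, 6 of 9 genes were lower in pre-HE in all 5 WT libraries (14.6% of all genes) and 2 of 9 were higher in all 5 (18.0%). These counts come from the contrast on which the genes were picked. In bulk sums of this kind, fewer cells holding a transcript and less of it per cell cannot be told apart, so the share of cells with a UMI is given beside the levels of the genes that differ most. Unlike the WT levels, these shares count the cells of all 8 libraries, WT and Mff_Cre together.

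Kcne3 (chr7:100176507-100184869 on GRCm38.p6, like all positions here) was close to 0 in pre-HE. In aEC it stood at 64.0, 62.8, 85.03, 146.4 and 71.4 CPM in WT 1 to WT 5, and in pre-HE at 0, 0, 0, 1.58 and 0 CPM, so the clusters did not overlap. Over the WT libraries 2 pre-HE UMIs stood against 1658 in aEC, a ratio of 116-fold with an exact 95% interval of 32.1 to 959 that covers counting error only. Without WT 4 pre-HE held 0 UMIs against 669, which with a floor of 3 counts over the group is at least 24.0-fold lower. After each cell, of WT and Mff_Cre together, had been thinned to 5000 UMIs, 289 of 1500 aEC cells (19.3%) and 0 of 235 pre-HE cells held a Kcne3 UMI. This allows up to 1.56% of pre-HE cells to hold a UMI at this depth (exact 95% limit, counting error only). It does not limit the share that express the gene. The share in Myeloid cells was 0.794%, and before thinning, at median depths of 11658, 10281 and 25445 UMIs, the shares were 29.3% in aEC, 1.21% in pre-HE and 3.80% in Myeloid cells. Among the Mff_Cre libraries only Mff_Cre 1 held Kcne3 in pre-HE, with 4 UMIs in 1 of its 29 cells.

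Apln (chrX:48025146-48034853), the apelin ligand, followed the same order. It stood at 61.8, 42.6, 43.9, 46.9 and 59.3 CPM in WT aEC and at 0, 0, 0, 3.16 and 0 CPM in WT pre-HE. The sums of 838 and 4 UMIs differed by 29.3-fold (interval 11.4 to 108), and by at least 18.7-fold without WT 4, which held all 4. A UMI was found in 16.1% of aEC and 0.426% of pre-HE cells at equal depth, against 0.418% of Myeloid cells, and before thinning in 30.2%, 1.61% and 2.09%. In EHT, the cluster that follows pre-HE in the study's ordering, the WT libraries reached 0.482 to 8.15 CPM, each above its own pre-HE value, but the sums of 39 and 4 UMIs gave a ratio of 2.45-fold with an interval of 0.885 to 9.45.

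Gpr183 (chr14:121952331-121965193), the oxysterol receptor, was likewise low in pre-HE but, unlike Apln, was not lower in the summed vEC clusters than in aEC. Its WT levels were 73.1, 47.3, 111, 66.9 and 61.1 CPM in aEC and 0, 0, 0, 0.791 and 12.9 in pre-HE, with no overlap. The 3 pre-HE UMIs, of which WT 5 held 2, stood against 1102, a ratio of 51.4-fold (interval 17.6 to 249.7), or 35.01-fold (9.65 to 289.7) without WT 4, and the log2 ratio of -5.68 became -7.19 without WT 5. The summed vEC clusters lay 1.15-fold above aEC (1.08 to 1.22) and above it in 4 of 5 libraries. The share of cells with a UMI was 25.8% in aEC, 0.426% in pre-HE and 23.6% to 34.4% in the vEC clusters at equal depth, and 46.0% in aEC and 1.21% in pre-HE before thinning. Trp53i11 (chr2:93187349-93201757) was lower as well but was not at 0 in any WT library. It stood at 78.1, 52.3, 77.7, 70.3 and 48.5 CPM in aEC and at 9.22, 9.34, 6.48, 12.7 and 19.3 CPM in pre-HE, a difference of 5.67-fold (interval 3.88 to 8.65), with 22.4% and 4.68% of cells holding a UMI.

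The genes of the secreted proteins Esm1 (chr13:113209659-113218104) and Nid2 (chr14:19751257-19811787) were kept in part. Nid2 stood at 116, 84.6, 72.2, 124 and 71.9 CPM in WT aEC and at 27.6, 23.3, 12.97, 45.9 and 57.9 CPM in WT pre-HE, so that its highest pre-HE library lay below its lowest aEC library. Esm1 stood at 107, 55.8, 66.8, 108 and 62.0 CPM in aEC and at 14.7, 23.3, 0, 69.6 and 0 CPM in pre-HE. Here WT 4 in pre-HE overlapped the aEC range while the other 4 libraries lay below it, and without WT 4 the summed difference rose from 2.04-fold (interval 1.67 to 2.52) to 6.14-fold (3.57 to 11.6). Of the 101 Esm1 UMIs in WT pre-HE, 88 came from WT 4, where 17 of 87 cells held the gene and 4 cells held 64 of the UMIs.

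Pdgfb (chr15:79995865-80024614), Cd34 (chr1:194938821-194961292) and Plaur (chr7:24460937-24475970) did not belong with the lost genes. Pdgfb stood at 121, 96.0, 87.8, 119 and 80.4 CPM in WT aEC and at 77.4, 84.03, 97.2, 79.9 and 77.3 CPM in WT pre-HE, with overlap, and was higher in pre-HE in WT 3. Its interval of 1.14 to 1.55 became 0.979 to 1.54 without WT 4. Cd34 was at 878, 857, 770, 777 and 705 CPM in WT aEC and at 1264, 1284, 953, 1003 and 895 CPM in WT pre-HE, so that every pre-HE library lay above every aEC library. Of the genes with at least 50 UMIs in the 2 clusters together, 10.6% were separated in that direction, and 7.05% of those with 50 in aEC were separated in the other, as Kcne3, Apln, Nid2, Gpr183 and Trp53i11 were. Plaur stood at 11.03, 14.7, 10.1, 11.8 and 7.19 CPM in WT aEC and at 40.6, 28.0, 25.9, 30.8 and 12.9 CPM in WT pre-HE. It was higher in pre-HE in all 8 libraries, by 2.72-fold in the WT sums (interval 2.05 to 3.57), and a UMI was found in 4.47% of aEC, 14.5% of pre-HE and 9.90% of EHT cells at equal depth. Pgf (chr12:85166637-85177785), had 7 UMIs among 16655098 in WT aEC and 7 among 2331096 in WT pre-HE, 7.15-fold higher in pre-HE (interval 2.14 to 23.9) and higher in 4 of 5 libraries, while Mff_Cre pre-HE held none.

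The Mff_Cre libraries rest on fewer counts. Their pre-HE sums held 1 Apln and 1 Gpr183 UMI, for ratios of 24.3-fold (interval 4.32 to 962) and 35.9-fold (6.40 to 1421) below aEC, and 2 of Trp53i11, for 16.6-fold (4.55 to 137). Kcne3 was lower by 7.97-fold (3.08 to 29.4), Esm1 by 6.59-fold (2.80 to 20.4) and Nid2 by 2.09-fold (1.32 to 3.50), each in 3 of 3 libraries. Pdgfb was lower in pre-HE in 1 of 3 libraries, with an interval of 0.910 to 1.87 around a sum 1.28-fold lower. Plaur was higher in 3 of 3 by 2.00-fold (0.983 to 3.75) and Cd34 in 2 of 3 by 1.04-fold (0.943 to 1.15).

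EHT held less than pre-HE of several of the genes. Over the WT sums Nid2 was lower in EHT by 8.845-fold (interval 6.03 to 13.2), Trp53i11 by 5.65-fold (3.03 to 10.8), Pdgfb by 4.11-fold (3.33 to 5.06) and Cd34 by 2.45-fold (2.33 to 2.57), each in 5 of 5 libraries and with no overlap. How many of all genes did so was not counted, so these values do not set the listed genes apart. The sum of the 5 endothelial genes was also lower, at 277 to 531 CPM in WT EHT against 2375 to 2731 in WT pre-HE. Esm1 had 101 UMIs in pre-HE and 4 in EHT, a ratio of 100.4-fold (interval 38.0 to 376) that was 20.5-fold (6.32 to 86.1) without WT 4. All 4 were in WT 5, which had 0 in pre-HE. Plaur stayed close, at 20.1 to 24.4 CPM in WT EHT and lower than in pre-HE in 4 of 5 libraries.

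**Figure D1:**
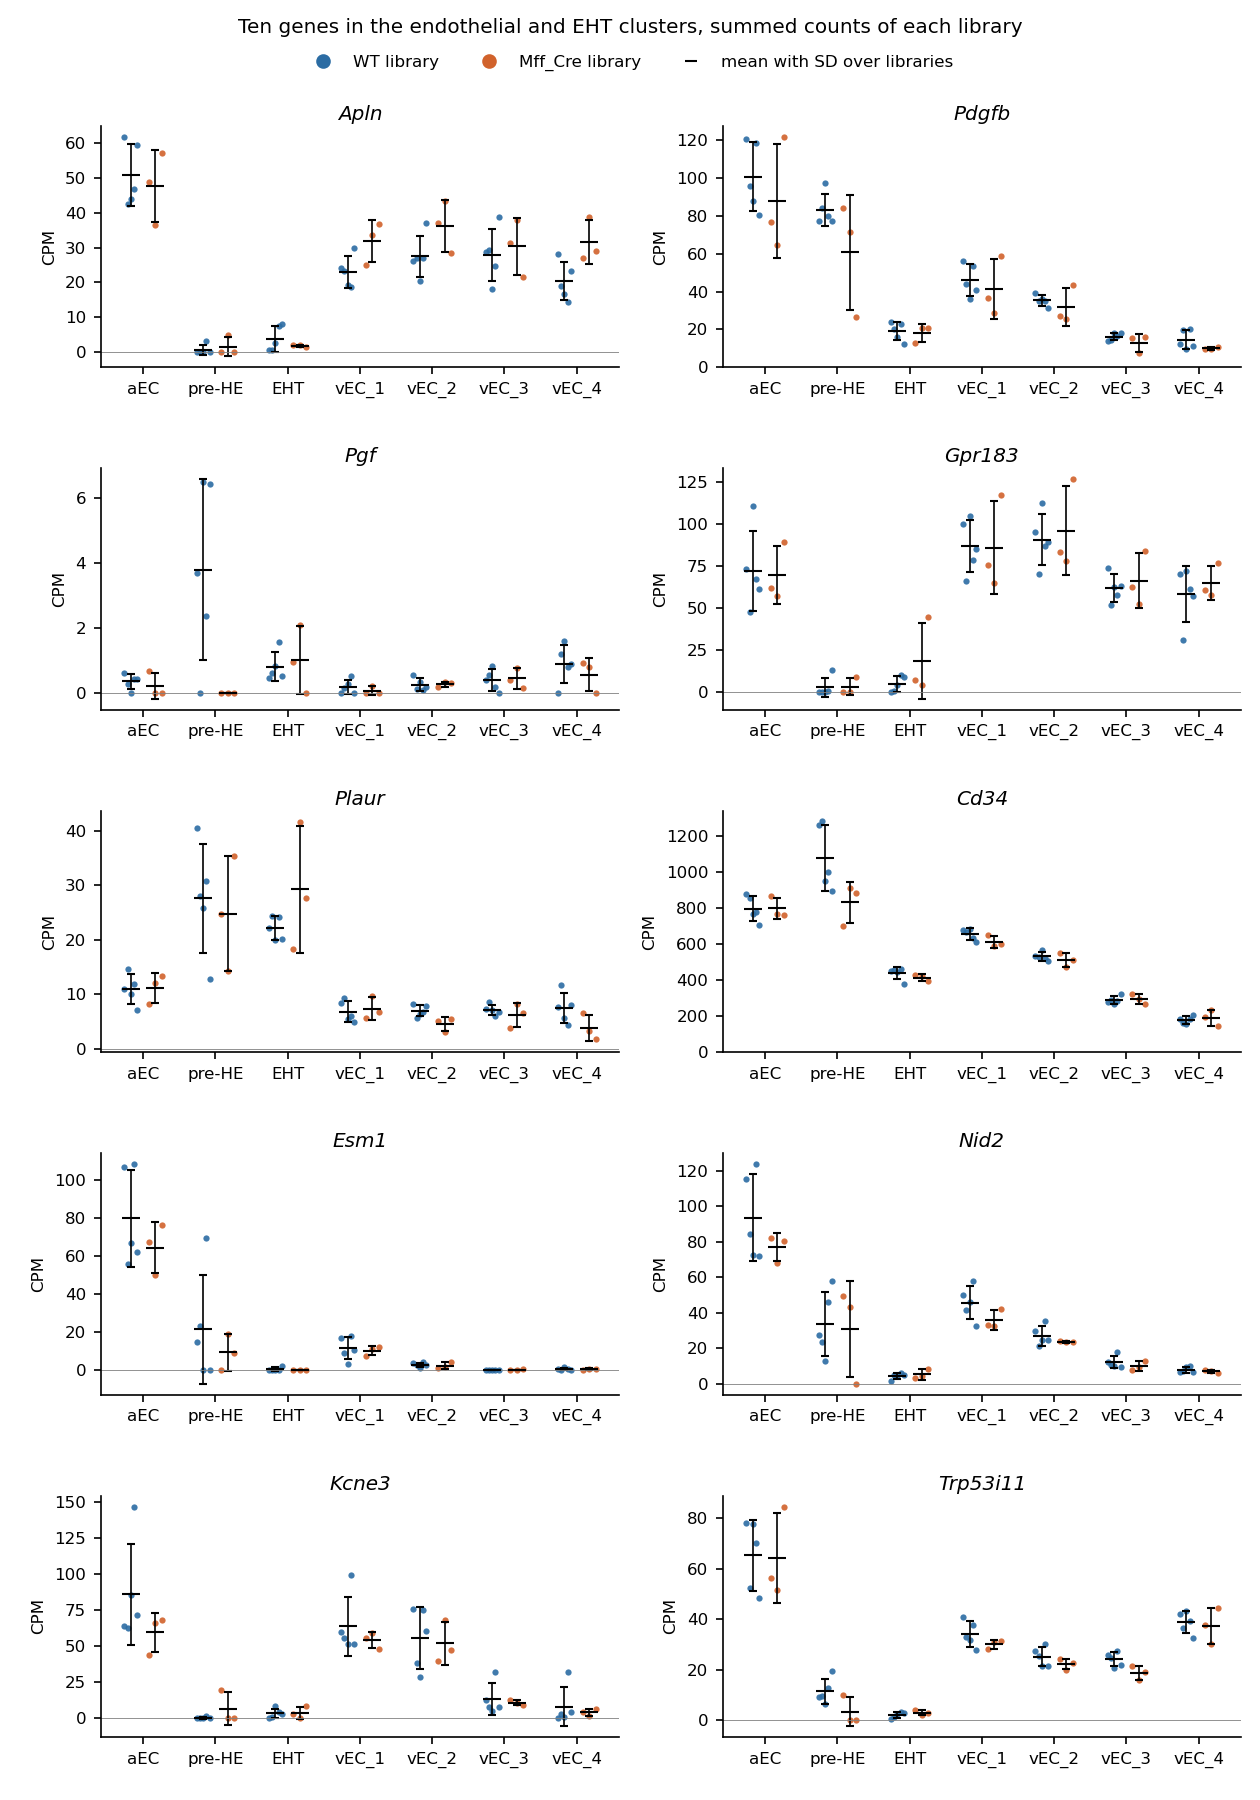
Level in CPM (vertical axes) of the 10 genes in 7 clusters (horizontal axes), with a point for each WT (blue) and Mff_Cre (orange) library and the mean with its SD in black. Kcne3, Apln and Gpr183 lie at or near 0 in pre-HE and Trp53i11 and Nid2 below their aEC libraries, while Cd34 (in WT) and Plaur lie higher in pre-HE than in aEC and Pdgfb overlaps.

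Along the vEC clusters the genes parted again. In the WT means Kcne3 ran from 85.9 ± 34.95 CPM (SD, n = 5) in aEC through 63.7 ± 20.3 in vEC_1 and 55.6 ± 21.3 in vEC_2 to 13.2 ± 10.97 in vEC_3 and 8.21 ± 13.5 in vEC_4, and each neighbouring pair overlapped. WT 4 alone made the overlap of vEC_2 and vEC_3, at 32.1 CPM in vEC_3 against 4.82 to 12.9 in the others, and in vEC_4 it stood at 32.2 against 0.349 to 4.49, so that vEC_4 lay 6.79-fold below aEC in the sums and 29.8-fold (interval 19.2 to 49.1) without it. Esm1 was low from vEC_1 on, going from 80.0 ± 25.6 CPM in aEC to 11.53 ± 5.91 in vEC_1, 2.71 ± 1.24 in vEC_2 and 0.107 ± 0.111 in vEC_3, and the 4 vEC clusters summed stood 18.4-fold below aEC (interval 16.7 to 20.2). Apln stayed level among the vEC clusters, at means of 20.4 to 27.9 CPM that overlapped, all below the 50.9 ± 8.98 of aEC. Trp53i11 was at 24.1 to 38.7 CPM in the vEC clusters, with its highest venous level in vEC_4, where Kcne3 and Nid2 had their lowest. Pdgfb stood at 101 CPM in aEC, 46.1 in vEC_1, 35.3 in vEC_2, 16.2 in vEC_3 and 14.6 in vEC_4, and Nid2 at 93.6, 45.5, 27.1, 11.98 and 7.82, with overlap between vEC_3 and vEC_4 for both. Cd34 ran from 1080 ± 182 CPM in pre-HE through 797 ± 70.5 in aEC and 656 ± 31.7 in vEC_1 to 179 ± 20.04 in vEC_4, and no 2 neighbours overlapped among its 7 highest clusters, in which EHT stood between vEC_2 and vEC_3.

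The blood clusters held chiefly Gpr183, Cd34, Pdgfb and Plaur. Gpr183 was highest of all clusters in WT Myeloid cells, at 94.9 ± 27.2 CPM, a level that overlapped vEC_2 at 90.7 ± 15.3. Pdgfb stood at 43.1 ± 12.5 CPM in Megakaryocytes, whose platelets carry the protein, and overlapped vEC_1. Plaur was at 9.32 ± 3.86 CPM in Myeloid cells. Kcne3, Esm1, Apln and Trp53i11 averaged under 8 CPM in each of EMP, Myeloid cells and Megakaryocytes. Over the 10 clusters the genes whose WT profile was most like the mean profile of the 10 genes were Trim3, Agap3, Gng5, Sh3bp4 and Arl2bp, with Pearson correlations on log2(CPM + 1) of 0.974 to 0.990 among 6937 genes, and these points share their libraries. That mean stands for few of the listed genes, whose own correlations ran from 0.17 (Pgf) and 0.19 (Gpr183) to 0.96 (Nid2). Trim3 was at 14.7 CPM in WT aEC and 10.7 in WT pre-HE.

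**Figure D2:**
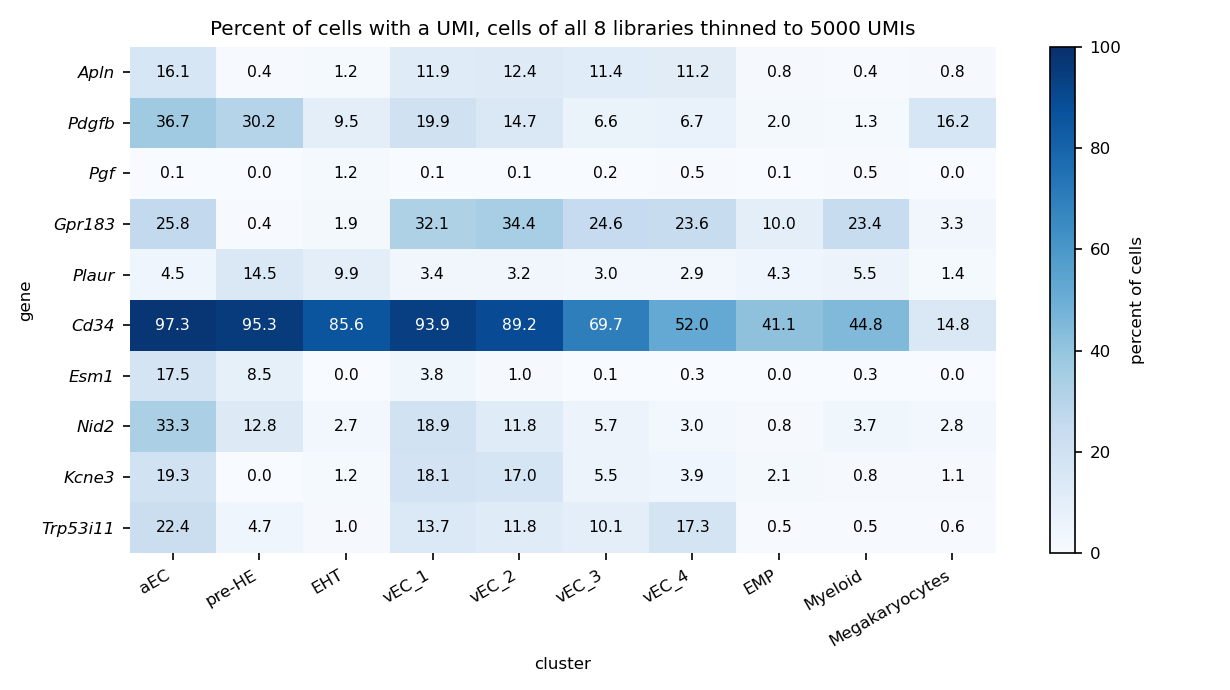
Percent of cells with at least 1 UMI (numbers and shade) of each gene (rows) in each of the 10 clusters (columns), over the cells of all 8 libraries thinned to 5000 UMIs. Pre-HE holds Kcne3 in 0 of 235 cells and Apln and Gpr183 in 1 each, while Pdgfb, Plaur and Cd34 remain, and Gpr183 is more frequent in vEC_1 and vEC_2 than in aEC.

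Other tip-cell genes went both ways between aEC and pre-HE. Of 22 further genes named for tip cells with enough UMIs, 3 were at least 4-fold lower in WT pre-HE (2.30% of all genes). In all 5 libraries 6 were lower (14.6% of all genes) and 11 were higher (1735 of 9948 genes). Their median log2 ratio was 0.12 against 0.09 over all genes. It was -1.44 over the 9 listed genes, which were picked on this contrast. At least 4-fold lower were Ramp3, a partner of the receptor for adrenomedullin, at a log2 ratio of -5.10, and Rgcc at -3.201. So was the semaphorin and VEGF co-receptor Nrp2, at -3.12. Furthest above aEC were Efnb2, Igfbp3 and Nrp1, at 2.36, 1.94 and 1.87, and Dll4, the Notch ligand of tip cells and of arteries, was higher by 1.62. Of the 10 arterial genes counted, all 10 were higher in pre-HE in every WT library, with a median of 1.72, and Efnb2, Dll4 and Nrp1 stand on both lists. Of the stalk and phalanx genes, 9 of 11 were higher in every library, among them Vwf by 4.49, Hey2 by 4.21 and Smad6 by 3.54.

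The partners of the listed genes differed in both directions. Aplnr, the apelin receptor, was at 191 CPM in WT aEC and 5.15 in WT pre-HE, a log2 ratio of -5.16 that was negative in all 5 libraries, and stood at 244 CPM in vEC. Vegfa and Pdgfa, ligands of the same families as Pgf and Pdgfb, were higher in pre-HE by 4.03 and 3.68, with 129 and 115 UMIs. Flt1, the receptor of Pgf, was higher by 0.44 in all 5 libraries. The urokinase Plau, which Plaur binds, was at 10.5 CPM in aEC and 4.72 in pre-HE, lower in 4 of 5 libraries, while its receptor was higher in 5. In the other lists, Nrp2 and Nr2f2 of the 3 venous genes stood at -3.12 and -2.88 and Ephb4 at 0.79, the 12 hypoxia-induced genes had a median of -0.27 and the 12 cell cycle genes one of -0.24.

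Genes of other cell types were higher in pre-HE as well. A list of 7 mesenchymal and mural genes summed to 145 to 784 CPM in WT pre-HE and 4.57 to 14.2 in WT aEC, and to 884 to 2020 in Mff_Cre pre-HE. Most of it was Tagln and Acta2, at means of 217 and 202 CPM in WT pre-HE, while Pdgfrb was at 0 in every library. The 6 myeloid genes summed to 0 to 9.34 CPM in WT pre-HE and 6.40 to 13.5 in WT aEC, with Ptprc at 0 in pre-HE. The part of these transcripts in the levels of the 10 genes was not tested.

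Within aEC the listed genes were unevenly shared among cells. For each pair, the number of cells with a UMI of both genes was set against the number given by the separate shares within each library, at 5000 UMIs per cell. Of 36 pairs for which at least 5 cells were given by chance, 8 had a ratio of 1.5 or more. The highest ratios joined Kcne3 with Esm1 (128 cells against 54.0, ratio 2.37), Esm1 with Apln (100 against 43.2, 2.31) and Kcne3 with Apln (95 against 46.6, 2.04), each above 1 in 8 of 8 libraries. Trp53i11 joined the same cells, at ratios of 1.81 with Esm1, 1.77 with Apln and 1.503 with Kcne3. Plaur, which was higher in pre-HE, had ratios of 1.86 with Apln (20 cells against 10.7) and 1.82 with Kcne3 (22 against 12.1). These were above 1 in 5 of 8 libraries each. With Esm1 its ratio was 1.47, above 1 in 6 of 8, and with Trp53i11 it was 1.07. Over 7371 genes found in enough aEC cells, a ratio of 1.5 or more was reached with Kcne3 by 0.977%, with Esm1 by 2.06% and with Apln by 1.64%. The listed genes were picked as tip-cell genes on these same counts, so the comparison with all genes is a description and no test. The closest partners of these genes outside the list included Chst1, Adm, Prss23 and Cxcr4.

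Gpr183 had lower ratios with these genes. They were 1.01 with Esm1, 1.09 with Kcne3 and 1.06 with Trp53i11, above 1 in 5, 5 and 4 of 8 libraries, and 1.23 with Apln (77 cells against 62.6), above 1 in 7 of 8. The lowest ratio of all was that of Gpr183 with Plaur, 0.562 from 10 cells against 17.8, above 1 in 1 of 8 libraries. Cd34, found in 97.3% of aEC cells, could not depart far from 1. In vEC_1 the pair of Kcne3 and Esm1 was again the highest of the pairs among Kcne3, Esm1 and Apln, at 2.23 (48 cells against 21.5). Esm1 with Apln stood at 1.70 there and Kcne3 with Apln at 1.435. The ratios of Trp53i11 in vEC_1 were lower than in aEC, at 0.977 with Esm1, 1.11 with Apln and 1.26 with Kcne3. These ratios rest on low counts and share their cells and libraries.

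**Figure D3:**
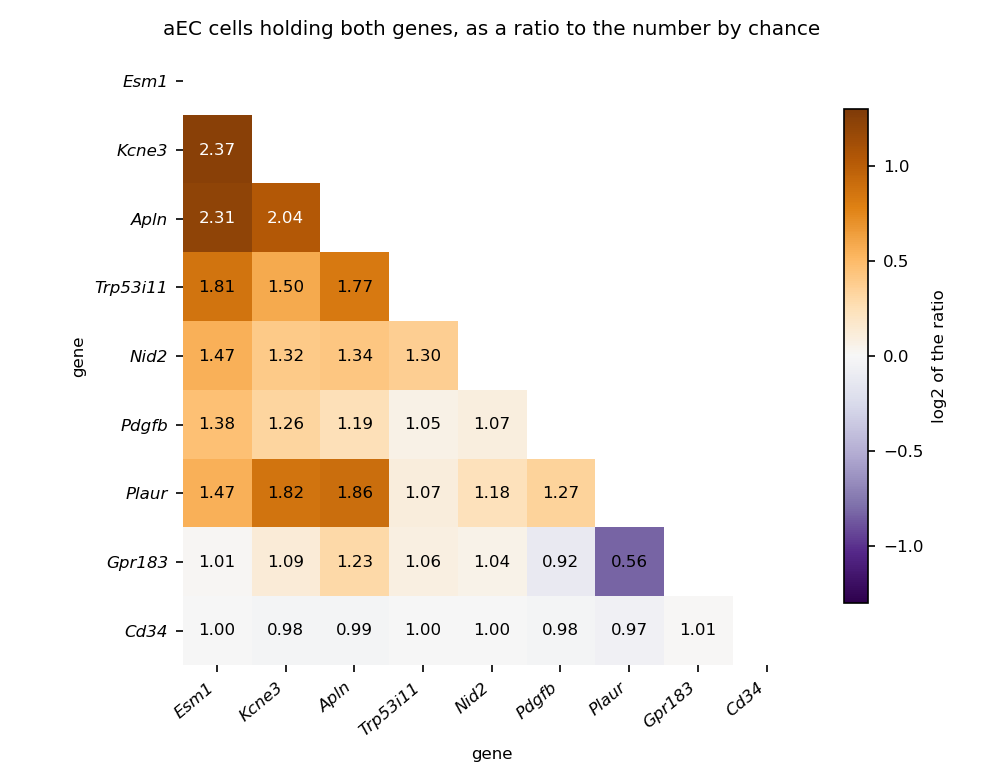
Number of aEC cells holding a UMI of both genes of a pair, divided by the number given by chance within each library (value in each square, color as log2 of the ratio), for 9 of the 10 genes over all 8 libraries. Esm1, Kcne3, Apln and Trp53i11 form a block of high ratios, and Plaur has ratios of 1.86 with Apln and 1.82 with Kcne3. The rows of Gpr183 and Cd34 lie between 0.9 and 1.1 apart from Gpr183 with Plaur (0.562) and with Apln (1.23).

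The aEC cells with an Esm1 UMI, 263 of 1500, were set against the other 1237 within each library. On the log2 scale Apln was higher in them by 2.13, Kcne3 by 1.97, Trp53i11 by 1.65, Nid2 by 1.04 and Pdgfb by 0.79, each in 8 of 8 libraries. Gpr183 and Cd34 stood at -0.04 and -0.09, each lower in 6 of 8. Of 8430 genes, 8.46% were higher and 10.4% lower in at least 7 of 8 libraries. Of the 22 other tip-cell genes 18 were higher that often and 1 lower, with Cxcr4, the receptor of the chemokine Cxcl12, at 2.34, the secreted peptide Adm at 2.28 and Dll4 at 1.26. The rise was not particular to that list. Of 10 arterial genes 6 were higher that often and 0 lower, and of 10 hypoxia-induced genes 5 were higher and 0 lower. Adm is also on the hypoxia list and Dll4 on the arterial list. Angpt2, a tip-cell ligand of Tek, stood at 2.76, higher in 6 of 8 libraries. The protease Plau was higher by 2.71 in all 8.

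Other genes were lower in the cells with Esm1. Tek, the angiopoietin receptor of quiescent endothelium, stood at -1.66 and lower in 8 of 8 libraries, the venous factor Nr2f2 at -2.14 and Aplnr at -0.66, both lower in 7. The S-phase genes Pcna, Rrm2 and Tyms stood at -0.84, -0.65 and -0.70, each lower in 8 of 8, while Mcm6 was higher by 0.25 in 8 of 8. A split by Gpr183 gave no such pattern among the tip-cell genes. Between the 387 aEC cells with and the 1113 without a Gpr183 UMI, 3 of the 22 other tip-cell genes were higher in at least 7 of 8 libraries (2.80% of all genes) and none lower (4.53%), and of the listed genes only Plaur, at -1.10, was lower that often. Of 10 arterial genes 0 were higher and 1 lower that often, namely Gja4, at -1.205 and lower in 8 of 8. With Esm1, Gja4 stood at -0.60 and was lower in 6 of 8.

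**Figure D4:**
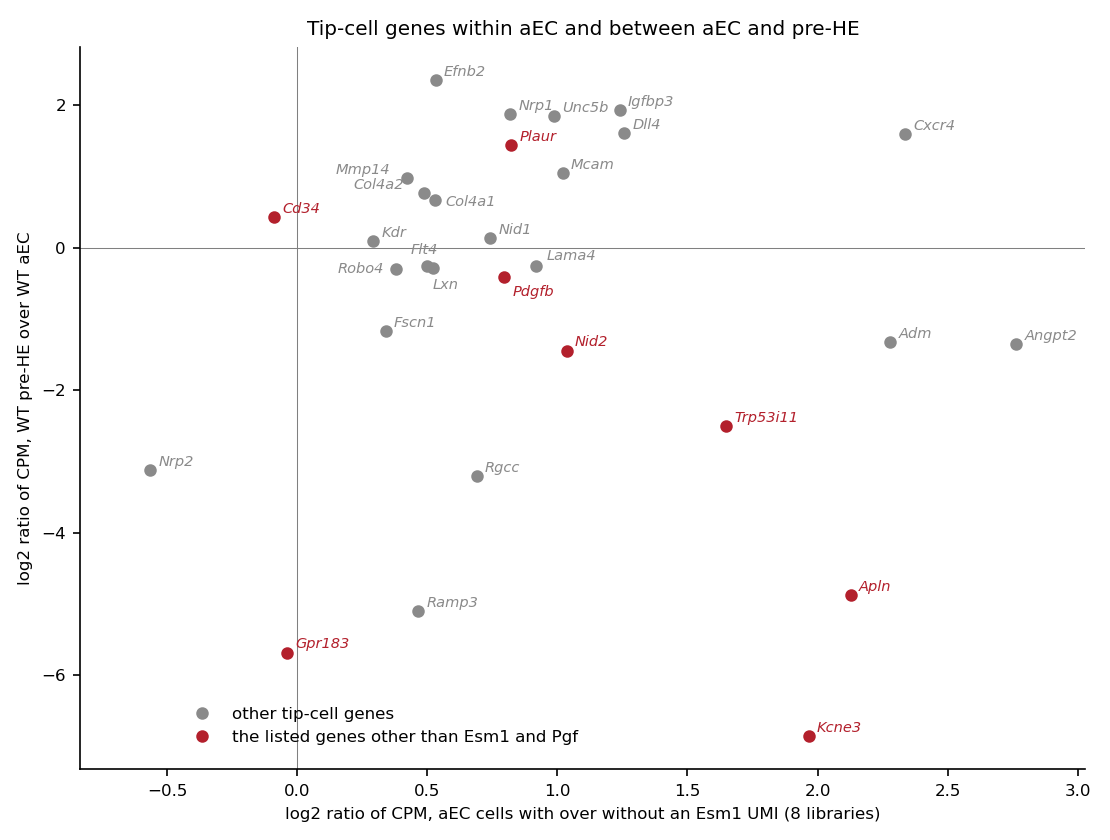
Log2 ratio of CPM between aEC cells with and without an Esm1 UMI (horizontal, summed over 8 libraries) against the log2 ratio of WT pre-HE over WT aEC (vertical; for the other tip-cell genes with 0.5 count added) for 8 of the listed genes (red) and 22 other tip-cell genes (grey). Kcne3, Apln and Trp53i11 lie to the right and low, Gpr183 low but at 0 on the horizontal axis, and most other tip-cell genes to the right but near or above 0 on the vertical axis.

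Most of the Esm1 UMIs left in WT pre-HE came from WT 4, but cells with the gene were found in other libraries too. They were 5 of 39 cells in WT 1, 3 of 18 in WT 2, 3 of 33 in Mff_Cre 2 and 1 of 15 in Mff_Cre 3. The 17 pre-HE cells of WT 4 with a UMI, set against its other 70, held more of the hypoxia-induced genes Bnip3 (204 against 28.2 CPM), Egln3 (70.4 against 17.1) and Adm (137 against 34.2). They also held more Igfbp3 (1779 against 630 CPM). They held less Cd34 (567 against 1122 CPM), Jag1 (48.2 against 133) and Plaur, with 3 UMIs against 36. Genes of other cell types differed there too, with Pf4 of megakaryocytes at 22 UMIs against 4 (81.5 against 4.02 CPM), Kit at 48.2 against 9.05 CPM, Tagln at 637 against 322 and Acta2 at 108 against 431, and their part in the other values was not tested. These are cells of 1 library and give no replicate check.

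The 250 bases before a transcript start of the RefSeq promoter table are printed for the 4 genes found together in aEC cells. Their ratios with one another were all at least 1.5, while those of Plaur with them were not all so high. The bases of Gpr183, whose ratios with them were lower, are printed beside them. They are on GRCm38.p6, the assembly of mm10, where 8 of the 10 genes had an entry and Nid2 and Pdgfb had none. The windows of Kcne3 and Trp53i11 lie partly inside the gene as annotated, which begins at 100176507 and 93187349, and Kcne3 has a second start, at whose window (chr7:100178433-100178682) the ETS and RBPJ motifs were found once each. Each is written 5' to 3' along its gene, and capitals mark matches on either strand to AGGAAG (ETS factors), ACGTG (core of the hypoxia response element), TGACAG (Meis), TGGGAA (RBPJ) or ACAAT (SoxF).
Kcne3, chr7:100176420-100176669, + strand: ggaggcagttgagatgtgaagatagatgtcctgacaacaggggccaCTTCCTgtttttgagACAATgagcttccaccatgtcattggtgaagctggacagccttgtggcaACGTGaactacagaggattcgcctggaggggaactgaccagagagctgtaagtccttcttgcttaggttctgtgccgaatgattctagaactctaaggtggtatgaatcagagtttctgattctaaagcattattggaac
Esm1, chr13:113209409-113209658, + strand: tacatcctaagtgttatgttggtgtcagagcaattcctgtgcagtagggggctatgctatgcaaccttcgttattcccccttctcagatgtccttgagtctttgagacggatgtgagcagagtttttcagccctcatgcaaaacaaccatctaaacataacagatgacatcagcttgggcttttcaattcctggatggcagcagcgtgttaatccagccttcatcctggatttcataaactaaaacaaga
Apln, chrX:48034854-48035103, - strand: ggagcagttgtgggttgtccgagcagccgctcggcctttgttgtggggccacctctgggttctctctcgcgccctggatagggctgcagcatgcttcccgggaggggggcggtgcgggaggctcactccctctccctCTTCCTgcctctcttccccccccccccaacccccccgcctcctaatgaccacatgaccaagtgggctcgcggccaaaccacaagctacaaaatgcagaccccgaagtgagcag
Trp53i11, chr2:93187298-93187547, + strand: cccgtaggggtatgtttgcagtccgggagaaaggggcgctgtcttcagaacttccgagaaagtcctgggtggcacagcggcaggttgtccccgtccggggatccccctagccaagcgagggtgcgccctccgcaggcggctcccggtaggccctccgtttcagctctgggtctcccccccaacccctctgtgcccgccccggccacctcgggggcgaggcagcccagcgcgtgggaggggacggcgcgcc
Gpr183, chr14:121965194-121965443, - strand: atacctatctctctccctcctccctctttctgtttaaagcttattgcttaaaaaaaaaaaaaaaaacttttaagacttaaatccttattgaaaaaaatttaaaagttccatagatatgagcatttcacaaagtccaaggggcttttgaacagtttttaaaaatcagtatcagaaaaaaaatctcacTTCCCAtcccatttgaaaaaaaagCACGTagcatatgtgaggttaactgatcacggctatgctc
None of these motifs stood in all 4 windows of the genes found together. The printed Kcne3 window held the ETS, SoxF and hypoxia motifs once each, the Apln window the ETS motif once, and those of Esm1 and Trp53i11 none, while that of Gpr183 held the RBPJ and hypoxia motifs once each. No window held TGACAG. Of 32851 promoters of the same length, 29.5% held AGGAAG, 27.7% ACAAT, 21.6% TGGGAA, 16.6% ACGTG and 15.9% TGACAG. A match of so few letters is a description and not a bound site.

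The genotype comparison asked whether endothelial loss of Meis1 changed these genes within a cluster. Counts summed per library and cluster were tested in edgeR (quasi-likelihood), with p adjusted by Benjamini-Hochberg over all genes and called below 0.1. In aEC 0 of 9 tested genes were called, where 0% of 9540 genes were, with 1000 of them, but none of the 9, under an unadjusted p of 0.05 and 11 called by DESeq2. Kcne3 stood at 44.2, 65.9 and 68.3 CPM in Mff_Cre aEC, inside or below the WT range, with a log2 fold change of -0.52 (SE 0.26, adjusted p = 0.51). In vEC 0 of 9 were called, where 0.0164% of all genes were (264 genes by DESeq2, none of the 9 among them), and 1 of the 9, Apln, had an unadjusted p under 0.05. It stood 0.37 higher on the log2 scale in Mff_Cre vEC (SE 0.16, adjusted p = 0.28), and without WT 5 this was 0.49 with an adjusted p of 0.024. In pre-HE only Cd34 and Pdgfb passed the filter on low counts, 2 of the 10 genes, and neither was called by edgeR (0.489% of genes) or DESeq2 or had an unadjusted p under 0.05. The mural genes Acta2 and Tagln were called higher in Mff_Cre pre-HE, by 2.01 and 1.45 on the log2 scale (edgeR adjusted p = 0.019 and 0.084). In EHT 0 of 4 tested genes were called by either tool (0.127% by edgeR), and 1, Gpr183, had an unadjusted p under 0.05.

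The test of the difference of differences found none of the 9 genes whose drop from aEC to pre-HE differed between genotypes, where 0.050% of 10007 genes did and DESeq2 called none of the 9. The nearest were Kcne3, at 3.90 on the log2 scale (SE 1.25, edgeR unadjusted p = 0.0023, adjusted p = 0.73), whose value rested on the 4 UMIs of 1 cell in Mff_Cre 1, and Cd34, at -0.385 (SE 0.14, unadjusted p = 0.0079, adjusted p = 0.915). Nor was the genotype effect found to differ between aEC and vEC for any of the 9, where 0% of 12174 genes were called. There 604 genes had an unadjusted p under 0.05, Apln and Kcne3 among them, and DESeq2 called 0.

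In blood cells, by edgeR over all 8 libraries, Gpr183 was the 1 listed gene called by genotype, and other settings that also called Cd34 or Kcne3 are given with the alternatives. In Myeloid cells it stood at 108, 74.0, 136, 83.1 and 72.7 CPM in WT 1 to WT 5 and at 30.1, 43.8 and 43.5 CPM in Mff_Cre 1 to 3, and every Mff_Cre library lay below every WT library. It fell by 1.19 on the log2 scale (SE 0.23, edgeR quasi-likelihood adjusted p = 0.032), the only one of 9 tested genes to be called, where 3.26% of 11479 genes were. The adjusted p was 0.57 with each library's median UMI depth added to the fit, 0.11 with WT 5 as the only WT library, and 0.18, 0.1005 and 0.102 without Mff_Cre 1, 2 or 3, the log2 change ranging from -1.34 to -0.81 over 20 alternatives. With each cell thinned to 5000 UMIs it was -1.17 (adjusted p = 0.0095), and without WT 5 it was -1.26 (adjusted p = 0.0047).

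In EMP the same gene lay the other way. Gpr183 was at 22.8, 33.6, 5.33, 10.6 and 8.53 CPM in WT and 47.3, 28.6 and 46.95 CPM in Mff_Cre, where only WT 2 reached into the Mff_Cre range. Its log2 fold change of 1.34 (SE 0.42, adjusted p = 0.12) was not called, nor were the other 4 genes tested there, where 4.74% of 9172 genes were. Of the 5, Gpr183, Cd34 and Pdgfb had an unadjusted p under 0.05, and DESeq2 called 1, Cd34. Cd34 stood at 118, 126, 186, 154 and 113 CPM in WT and 208, 165 and 193 CPM in Mff_Cre EMP, at 0.49 (SE 0.16, adjusted p = 0.15). The difference between the genotype effects of Gpr183 in EMP and in Myeloid cells was 2.48 on the log2 scale (SE 0.46, edgeR adjusted p = 0.027, 0.747% of 11372 genes called), a test added after these values had been seen. It was not called without Mff_Cre 1 (adjusted p = 0.20) or without Mff_Cre 3 (0.18). In EHT the Mff_Cre mean of Gpr183 was set by Mff_Cre 3, at 44.4 CPM against 6.77 and 4.17, where 2 of 40 cells held 28 of the 32 UMIs.

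Marker genes differed by genotype in the same blood clusters. The 3 EMP markers summed to 185 to 273 CPM in WT and 399 to 471 CPM in Mff_Cre Myeloid cells. Of these the granule enzyme Mpo was higher by 1.17 on the log2 scale (SE 0.15, edgeR adjusted p = 0.0065). Myb and Kit, the rest of that list, stood at 0.09 and -0.08 and were not called. The 6 Myeloid markers summed to 1972 to 3261 CPM in WT and 3003 to 3649 in Mff_Cre Myeloid cells, with Lyz2, the lysozyme of granulocytes and macrophages, higher by 0.91 (SE 0.21, adjusted p = 0.057). Ptprc, Csf1r, Itgam, Tyrobp and Fcer1g stood at -0.008, 0.03, 0.18, 0.23 and 0.34 there and were not called. In EMP the 6 Myeloid markers summed to 627 to 899 CPM in WT and 1127 to 1300 in Mff_Cre, and the 5 erythroid genes to 28.1 to 116 and 152 to 828. Of these, Lyz2, Tyrobp, Fcer1g, Hba-a1, Hba-a2 and Hbb-y were called higher. Ptprc, Itgam, Csf1r and Hbb-bs were not called, nor was Hbb-bt, which stood lower at -1.17. Among the EMP markers Mpo was called higher by 0.46 in EMP, while Kit and Myb stood at -0.35 and -0.24 and were not called. Higher sums were not confined to these 2 clusters. The Myeloid markers averaged 8.38 CPM in WT and 20.8 in Mff_Cre aEC, 6.07 and 21.4 in vEC_3, but 822 and 684 in Megakaryocytes. The erythroid genes averaged 37.6 and 87.3 CPM in vEC_2 and 1743 and 14128 in Megakaryocytes, but 284 and 163 in Myeloid cells. Lyz2 was also called higher in Mff_Cre vEC, by 2.61 (edgeR adjusted p = 0.091). Doublets were called among 3.42% of Myeloid cells, and without them the Gpr183 change was -1.20 (adjusted p = 0.033). Whether a different mixture of myeloid cells, or the depth of the libraries, carried the Gpr183 difference was not tested beyond these values.

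**Figure D5:**
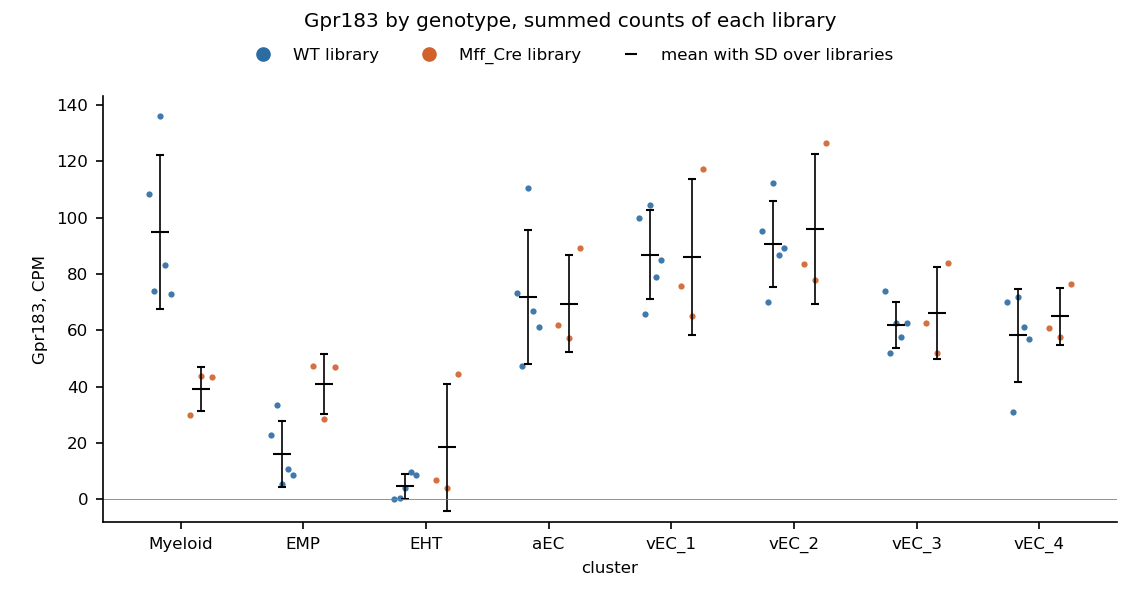
Gpr183 in CPM (vertical axis) in 8 clusters (horizontal axis), with a point for each WT (blue) and Mff_Cre (orange) library and the mean with its SD in black. The 3 Mff_Cre libraries lie at 30.1 to 43.8 CPM in Myeloid cells, below all 5 WT libraries, and at 28.6 to 47.3 CPM in EMP, above 4 of 5, while the endothelial clusters overlap.

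CD44 is a surface protein used to mark endothelium on its way to blood, and its tag was counted in WT 5 and the 3 Mff_Cre libraries. In each of these 4, aEC cells with more tag than the library's median were compared with the rest, with library as a block. Of the 9 listed genes tested 0 were called by edgeR, where 0.372% of 8054 genes were, and DESeq2 called 0 of the 9 as well. Apln was higher in the cells with more tag by 0.48 on the log2 scale (SE 0.16, unadjusted p = 0.0031, adjusted p = 0.36) and Esm1 by 0.28 (SE 0.14, adjusted p = 0.78). Among the lists, the cell cycle genes Mki67, Top2a and Cenpf were called higher, and Emcn and Slc2a1 lower. Cells with more tag also had more UMIs in each of the 4 libraries, with medians of 7292 to 11524 against 6830 to 9138. With the tag taken as a share of all tags, the Apln difference was -0.07.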

How the data were processed

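Single CD31-positive AGM cells were profiled by CITE-seq (10x 3' chemistry) in 8 libraries. Per the labels and the methods of the study, the authors made UMI counts with Cell Ranger 3.0.2 on mm10, kept cells with over 2000 genes and under 10% mitochondrial reads, integrated the libraries and named clusters by hand. The deposited table holds raw counts per gene and cell for 15168 cells, with antibody tag counts, and the deposited annotation gives library and cluster. Cells were summed per library and cluster (at least 10 cells in a test), scaled to CPM, and tested with edgeR 4.0.16 (filterByExpr, TMM, quasi-likelihood, adjusted p under 0.1); DESeq2 1.42.0 was an alternative. Shares and co-detection used cells thinned to 5000 UMIs, which left out 13 pre-HE and 12 aEC cells. Intervals are exact at 95%. Doublets (scrublet in scanpy 1.11.5; 128 cells, 0.844%) were kept. The tests were checked on simulated data. Named genes are the 10 listed, those of each list that rose or fell most, and the 5 with the most similar profile; other genes were chosen after their values were seen. A gene of the list of receptors, ligands and partners is not reported here. Members, lists and tests were chosen with earlier results of these data known.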

Additional observations from a re-analysis of the deposited data

Results flagged for a closer look

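Among 71 groups of 5 WT libraries, 5 held a library that stood apart from the other 4 (Dixon's test at 95%), where chance alone gives about 1 in 20. Of these, 3 were Kcne3 in WT 4, at 146.4 CPM in aEC against 62.8 to 85.0 in the other 4, at 99.43 CPM in vEC_1 against 51.6 to 59.8, and at 32.17 CPM in vEC_4 against 0.349 to 4.49. WT 4 also held the only Kcne3 UMIs of WT pre-HE, and the 3 values come from the same library. Kcne3 in Myeloid cells of WT 5 stood at 3.943 CPM against 0.558 to 0.971, while the Mff_Cre libraries were at 2.76 to 3.83. Cd34 in EHT cells of WT 5 was at 381.2 CPM against 446 to 464, and the Mff_Cre libraries at 394 to 427.

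The genotype effect on Gpr183 differed between EMP and Myeloid cells by 2.478 on the log2 scale, by a test of the difference itself. This rested on Mff_Cre 1 and Mff_Cre 3, without either of which it was not called (edgeR adjusted p = 0.20 and 0.18).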

How the results depend on the processing

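Cluster contrasts kept their direction. The count of genes at least 4-fold lower in pre-HE was 4, and 4 to 5 without each WT library. With no thinning 0 genes, in place of 4, had a UMI in under 1% of pre-HE cells, and 5 pairs, in place of 8, had a co-detection ratio of at least 1.5 (7 to 9 without each library). Of the listed genes called by genotype, Myeloid cells gave 1, 0 with median UMIs as a covariate, 3 with libraries 1 to 3 alone (a setting added after seeing the data), and 0 to 2 without each library (0 without any of Mff_Cre 1, 2 or 3, and 2 without WT 5, Kcne3 being the other, at 2.10). EMP gave 0, and 1 with DESeq2, with no filter on low counts, thinned, and with WT 5 as the only WT library, and 0 to 1 without each library (Gpr183 without WT 2, Cd34 without WT 3). In vEC 0 became 1 (Apln) with libraries 1 to 3 alone and 0 to 1 without each library, and in EHT 0 became 1 (Gpr183) with no filter. The EMP and Myeloid difference gave 0 to 1 without each library, and aEC, pre-HE, the other differences and the CD44 comparison 0 throughout. Reversed values were Apln in vEC, at -0.15 with median UMIs as a covariate and -0.079 with WT 5 as the only WT library, and Apln with more CD44 tag, at -0.073 with the tag as a share of all tags. The cause of these changes was not tested. Of 200 recomputed counts 178 were unchanged or within 1.5 times.

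The labels do not say that replicate numbers pair libraries, and the correlation of deviations was over 0.1 in 7 of 18 same-numbered and 4 of 36 other pairs, so not in every pair. With the replicate block the listed genes called were 0 in aEC, pre-HE and EHT, 1 in vEC (Apln, 0.48), 1 in EMP (Cd34, 0.48) and 3 in Myeloid cells (Gpr183, Cd34 and Kcne3). Few pre-HE cells, 77 in Mff_Cre, limit what a count near 0 can show there.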
